A study of Mus musculus with 6 samples.

Results

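The genes described here are the enzymes that remove superoxide and peroxides, together with a pair of thioredoxins made in spermatids: the glutathione peroxidases Gpx1, Gpx3, Gpx4 and Gpx5, the superoxide dismutases Sod1, Sod2 and Sod3, catalase (Cat), and Txndc2 and Txndc8. They were found by the gene name printed on the array, which gave 10 genes and 12 probes of 55681 probes in all. Of these, 9 genes (11 probes) were bright enough to be tested among 25276 genes, and Gpx5 was not. No member lies on chromosome 1, so none is in the chromosome segment by which the strains were made to differ.

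Gene expression was measured in whole testis, 10 days after the scrotum had been held once at 43 °C for 20 min. The samples were 3 arrays of B6.MRLc1 mice and 3 of C57BL/6 mice (B6), all males of 3 months. In the congenic strain B6.MRLc1, the stretch of chromosome 1 between 67.97 and 81.63 cM comes from MRL mice and the rest of the genome from B6, whereas B6 carries its own chromosome 1 throughout. Both strains were heated, and unheated testis was not analysed here, so every difference below is between strains in heated testis and none is a response to heat.

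Superoxide, a by-product of respiration and of dedicated oxidases, is turned into hydrogen peroxide by superoxide dismutases. Catalase and the glutathione peroxidases then reduce the peroxide, the peroxidases with electrons from glutathione, while thioredoxins reduce disulphide bonds in proteins. In the male germ line these systems have a further use, since the packing of sperm chromatin and the building of the sperm tail depend on controlled oxidation of protein thiols. Gpx4, a selenoprotein that reduces lipid hydroperoxides inside membranes, becomes a structural protein of the sperm midpiece, and spermatids make thioredoxins of their own.

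Each signal came from a 60-base probe, and the probes on which the results turn are shown because they define what was measured. Positions are those of the array annotation on mouse build mm9 (NCBI37), and exon and untranslated region annotation of that build was not used here. The Txndc8 probe with the brighter signal is A_55_P2097393, at chr4:57998450-57998509 on the minus strand. The Txndc2 probe is A_51_P164393, at chr17:65987824-65987883 on the minus strand. Its capitals mark a run of 15 bases that occurs at positions 1 and 46 of the probe, 45 bases apart. The Gpx4 probe, A_51_P462448, lies at chr10:79518691-79518842 on the plus strand, a span longer than the probe itself. The Cat probe A_51_P191611, at chr2:103297086-103300428 on the minus strand, is also split over the genome, unlike the second Cat probe. Capitals are used in the Txndc2 line only.
Txndc8 A_55_P2097393: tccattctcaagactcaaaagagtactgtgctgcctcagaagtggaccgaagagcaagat
Txndc2 A_51_P164393: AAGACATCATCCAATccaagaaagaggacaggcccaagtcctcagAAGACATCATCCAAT
Gpx4 A_51_P462448: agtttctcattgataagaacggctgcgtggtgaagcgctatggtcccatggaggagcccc
Cat A_51_P191611: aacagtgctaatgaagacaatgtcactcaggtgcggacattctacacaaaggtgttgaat

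Signals are given as log2 of the processed intensity relative to the 75th percentile of the array, and differences are B6.MRLc1 minus B6 on that log2 scale. The 75th percentile was 558 to 604 intensity units on the B6.MRLc1 arrays and 580 to 666 units on the B6 arrays, and no spot was saturated. A spot is well above background when the scanner software flags it so, which held for 58.0 to 64.7% of spots on the B6.MRLc1 arrays and for 68.6 to 69.0% on the B6 arrays. Array pairs of the same strain correlated at 0.991 to 0.995 over probes and pairs of different strains at 0.979 to 0.990. All 6 arrays shared 1 slide and 1 scan, but the B6.MRLc1 arrays lay in slide row 2 and the B6 arrays in row 1, so row and strain cannot be told apart. Levels of different probes are not compared, since each probe binds with its own efficiency. The germ cell marker Prm1, a protamine of elongating spermatids, was well above background on all 6 arrays, and the epididymal markers Crisp1 and Lcn5 on none. Other epididymal markers were detected: of 20 on the array, 10 were well above background on no array and 7 were bright enough to be tested.

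Of the 9 tested genes, 1 was called at an adjusted p under 0.05 and the other 8 were not. The called gene was Txndc8, which was lower in B6.MRLc1 testis and was tested only because its B6 arrays were bright enough. Over all genes tested, 2.62% were called, 2.24% lower and 0.384% higher in B6.MRLc1. The fitted differences of the members lay below 0 for 5 genes and above 0 for 4, with a median of -0.00598 on the log2 scale, against a median of 0.0135 over all genes. For Gpx4 and Txndc8 every B6.MRLc1 array was below every B6 array, a separation seen in 14.2% of all genes, and for Sod3 every B6.MRLc1 array was above, as in 14.3% of all genes. In either direction such a separation was found in 28.5% of all genes. An unadjusted p under 0.05 was found for 3 members (Gpx3, Sod3 and Txndc8) and for 20.1% of all genes.

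**Figure D1:**
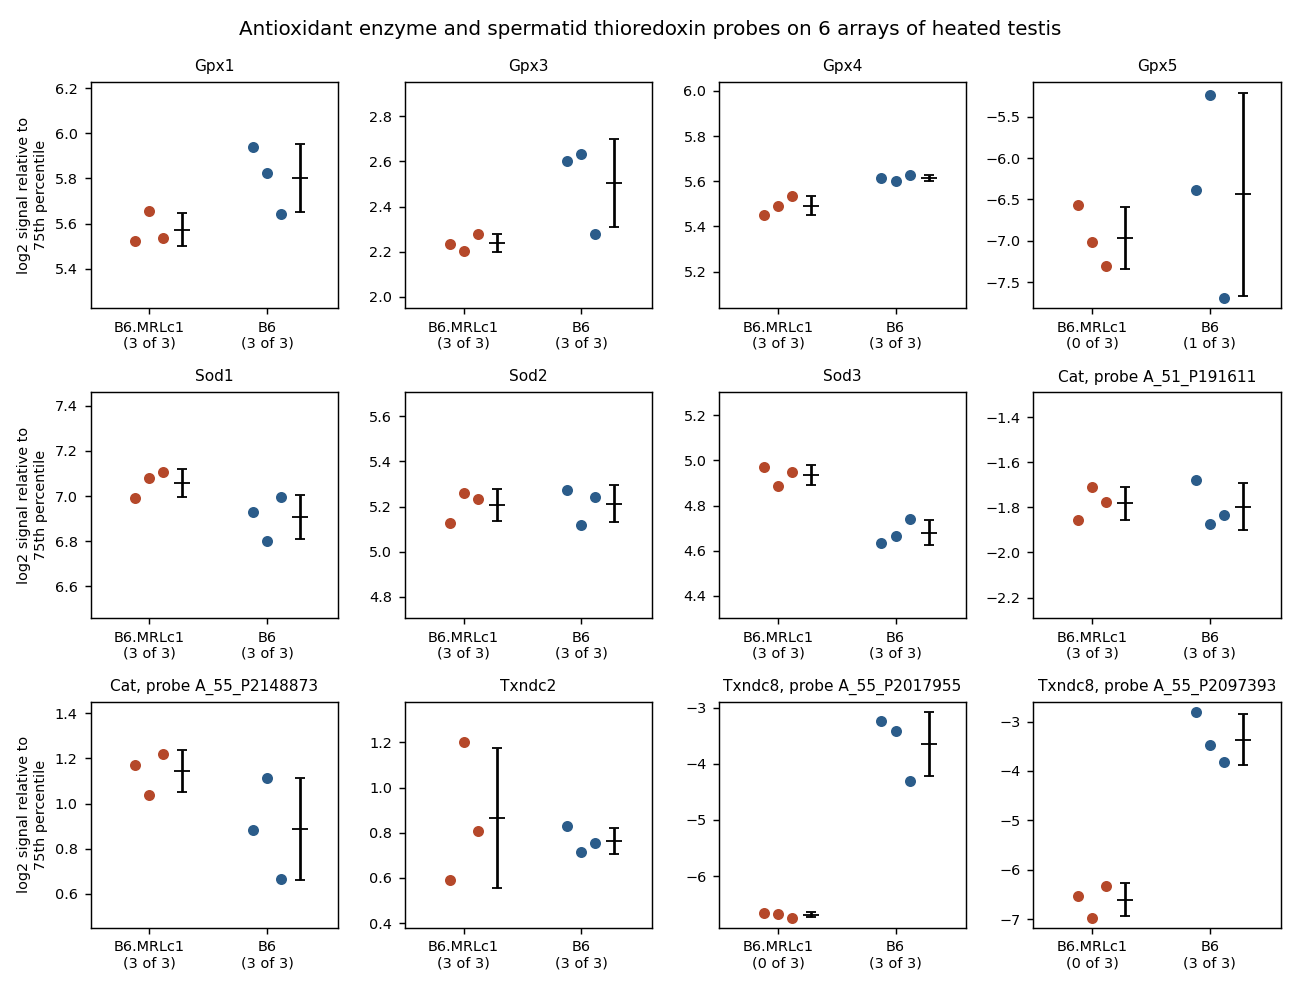
Processed signal on the log2 scale, relative to the 75th percentile of its array (y axis, each panel with its own range) for the 12 probes of the 10 genes in 3 B6.MRLc1 and 3 B6 testes. Points are arrays, bars are the mean ± SD, and the count under each strain is the number of arrays on which the probe was well above background. The strains separate for both Txndc8 probes, whose B6.MRLc1 values are below detection, so that the gap is no measured size. They separate by a small step for Gpx4 and Sod3, and overlap for the other tested genes.

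Among the dismutases, Sod3, the secreted enzyme that is held in the extracellular matrix, had signals of 4.97, 4.88 and 4.95 in B6.MRLc1 testes, against 4.63, 4.66 and 4.74 in B6 testes. The B6.MRLc1 arrays were all above the B6 arrays, at 4.94 ± 0.05 and 4.68 ± 0.06 (SD, n = 3 each). The difference was 0.26 (SE 0.06, 95% interval 0.11 to 0.40), that is 1.19-fold, with an adjusted p of 0.0896, so Sod3 was not called. Letting the variance follow the mean signal gave an adjusted p of 0.0294 and weighting the arrays gave 0.0171, so the call of Sod3 depends on how the error is modelled. Its probe, A_55_P2077558, lies at chr5:52760685-52760744 on the plus strand.

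Sod1, the copper-zinc enzyme of the cytosol, gave 6.99, 7.08 and 7.11 in B6.MRLc1 testes, against 6.93, 6.80 and 6.99 in B6 testes. One B6 array reached the lowest B6.MRLc1 level, and the difference of 0.15 (SE 0.07, interval -0.03 to 0.33) had an adjusted p of 0.317. Sod2, the manganese enzyme of mitochondria, gave 5.13, 5.26 and 5.23 in B6.MRLc1 testes, against 5.27, 5.12 and 5.24 in B6 testes. The ranges of the strains coincided, and the difference was -0.00598 (SE 0.07, interval -0.18 to 0.17, adjusted p = 0.970). The Sod1 probe, A_55_P2177539 at chr16:90226509-90226568 on the plus strand, shared a window of 20 bases with 1 other probe of the array, whereas no other member probe shared one. The Sod2 probe, A_51_P172573, lies at chr17:13208074-13208133 on the plus strand.

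Catalase, the peroxisomal enzyme that splits hydrogen peroxide, was read by both of its probes. The brighter probe, A_55_P2148873 at chr2:103294487-103294546 on the minus strand, gave 1.17, 1.04 and 1.22 in B6.MRLc1 testes, against 0.88, 1.12 and 0.66 in B6 testes. B6 array 2 fell within the B6.MRLc1 range, and the difference of 0.26 (SE 0.13, interval -0.06 to 0.57) had an adjusted p of 0.326. The other probe gave -1.86, -1.71 and -1.78 in B6.MRLc1 testes, against -1.68, -1.88 and -1.83 in B6 testes. It showed a difference of 0.0145 (SE 0.08) with an adjusted p of 0.936 over single probes. Neither probe was called, and the gap between their differences was not tested. The brighter probe contains a run of 16 bases of alternating C and A, which the other lacks.

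All 3 tested glutathione peroxidases were fitted below 0, and none was called. Gpx1, the abundant enzyme of cytosol and mitochondria, gave 5.53, 5.66 and 5.54 in B6.MRLc1 testes, against 5.94, 5.82 and 5.64 in B6 testes. Its difference was -0.23 (SE 0.09, interval -0.46 to 0.000837, adjusted p = 0.250), and B6 array 3 fell just inside the B6.MRLc1 range. Gpx3, the form secreted into plasma, gave 2.23, 2.20 and 2.28 in B6.MRLc1 testes, against 2.60, 2.63 and 2.28 in B6 testes. The B6.MRLc1 arrays lay close together, and B6 array 3 lay with them rather than with the other B6 arrays. Its difference was -0.27 (SE 0.11, interval -0.53 to -0.000794), with an adjusted p of 0.248. The probes are A_52_P684378 at chr9:108242276-108242335 and A_51_P292008 at chr11:54723436-54723495, both on the plus strand.

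Gpx4 gave 5.45, 5.49 and 5.54 in B6.MRLc1 testes, against 5.61, 5.60 and 5.63 in B6 testes. The strains did not overlap, with means of 5.49 ± 0.04 for B6.MRLc1 and 5.61 ± 0.01 for B6 mice (SD, n = 3 each), but the step was small. The difference of -0.12 (SE 0.05, interval -0.25 to 0.0046) had an adjusted p of 0.262. Gpx4 was also the steadiest member between mice of a strain. Its within-strain SD of 0.0317 was at the 3.05th percentile of all genes tested, whose median SD was 0.119. The genes with the most similar pattern over the 6 arrays were Wdr53, Rpsa and Acd. Their centred signals differed from those of Gpx4 by a root mean square of 0.0115, 0.0124 and 0.0134, against a median of 0.140 over 15680 named genes. As the nearest of that many they had to lie below the median, so the gap to it is no result. In 18 alternative analyses the difference of Gpx4 stayed between -0.15 and -0.10 and was called in none.

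Gpx5, a secreted peroxidase of the epididymis that carries no selenium, was near background. Its probe, A_55_P2166758 at chr13:21378308-21378367 on the minus strand, was well above background on 0 of 3 B6.MRLc1 arrays and on 1 of 3 B6 arrays. The processed intensities were 5.89, 4.66 and 3.56 in B6.MRLc1 testes, against 7.99, 17.1 and 2.81 in B6 testes. The highest of these was the single flagged array, and no fold is given because both strains were at about background. Of the 20 epididymal marker genes on the array, 10 were well above background on no array. Among the 7 that were tested, 1 was called lower, 4 were fitted above 0 and 3 below 0, and the median difference was 0.0275. Their summed signal, in multiples of the 75th percentile, was 20.4 to 26.5 in B6.MRLc1 testes and 12.4 to 20.9 in B6 testes. Most of that sum is a single gene, Cst8, with log2 signals of 4.18 to 4.61 in B6.MRLc1 testes and 3.37 to 4.23 in B6 testes.

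Of the spermatid thioredoxins, Txndc8 was called lower in B6.MRLc1 testis and Txndc2 was not called. Txndc8, a thioredoxin of the spermatid Golgi and forming acrosome, was measured by a pair of probes. With probe A_55_P2097393 the signals were -6.53, -6.97 and -6.33 in B6.MRLc1 testes, against -2.81, -3.47 and -3.82 in B6 testes. None of the B6.MRLc1 arrays and all B6 arrays were well above background, so the B6.MRLc1 values are below detection and do not measure the level there. The measured means were -6.61 ± 0.33 for B6.MRLc1, against -3.37 ± 0.51 for B6 (SD, n = 3 each), and the gap between them is no measure of size. Set against the mean over the B6.MRLc1 arrays of the dimmest signal flagged as well above background, the B6 level was 2.97 times as high. Against the limits of B6.MRLc1 arrays 1, 2 and 3 taken singly, it was 2.18, 3.13 and 3.84 times as high. Each limit is the single dimmest flagged signal of an array, so these folds are no firm lower bound. The adjusted p of the fit was 0.0190. The probe entered the test only through the B6 arrays. Such entry favours genes that are brighter in B6, so that p is not free of the selection. In bulk tissue, fewer cells of a type and less RNA per cell cannot be told apart.

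The second Txndc8 probe, A_55_P2017955 at chr4:57996970-57997029 on the minus strand, gave -6.65, -6.67 and -6.74 in B6.MRLc1 testes, against -3.24, -3.41 and -4.30 in B6 testes. It too was well above background on 0 of 3 B6.MRLc1 arrays and 3 of 3 B6 arrays. The B6 level was 2.44 times the mean limit, and 1.79, 2.57 and 3.16 times the limits of B6.MRLc1 arrays 1, 2 and 3. It likewise entered the test only through the B6 arrays, and its adjusted p over single probes, 1.83% of which were called, was 0.0195. The probes read the same mice and are not replicates of each other.

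Because the Txndc8 signal was dim, the brightness of its spots before background subtraction was read as well. For probe A_55_P2097393 it was 47.0, 49.1 and 48.4 units in B6.MRLc1 testes, against 136, 98.0 and 82.5 units in B6 testes. The median negative control spot was at 40.3 to 41.3 units on the B6.MRLc1 arrays and at 39.7 to 41.8 units on the B6 arrays. On each B6 array the Txndc8 spot exceeded the 99th percentile of the negative controls, which was 48.4 to 69.0 units there, and on no B6.MRLc1 array did it reach that percentile, which was 72.6 to 139 units there. Background noise was higher on the B6.MRLc1 arrays, with an additive error of 3.38 to 5.68 intensity units against 2.66 to 3.14 on the B6 arrays. The processed B6 intensities of 95.0, 58.3 and 41.0 lay above the lowest signals flagged as well above background on the B6.MRLc1 arrays, which were 14.2 to 24.8. By brightness before subtraction the B6 spots were not all above the negative controls of the other strain, since 98.0 and 82.5 are below the 139 units of B6.MRLc1 array 2 and 82.5 is below the 88.1 units of array 1.

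The Txndc8 call was kept in 12 of the 16 alternative analyses that tested it, and 4 ended it. With dim values raised to a floor the adjusted p was 0.0735, at a difference of -1.57. With the replicate number as a block, which is also the slide column, it was 0.0900. Leaving out B6.MRLc1 replicate 1 gave an adjusted p of 0.0610 and leaving out B6.MRLc1 replicate 2 gave 0.0587. With normexp, a background model that draws dim values together, the difference was -0.70 and the adjusted p 0.0225. The call was kept narrowly with no filter on dim probes (adjusted p = 0.0495) and without B6 replicate 2 (adjusted p = 0.0491). The alternatives reuse the same B6.MRLc1 spots, which are below detection, so their count is no separate evidence.

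**Figure D2:**
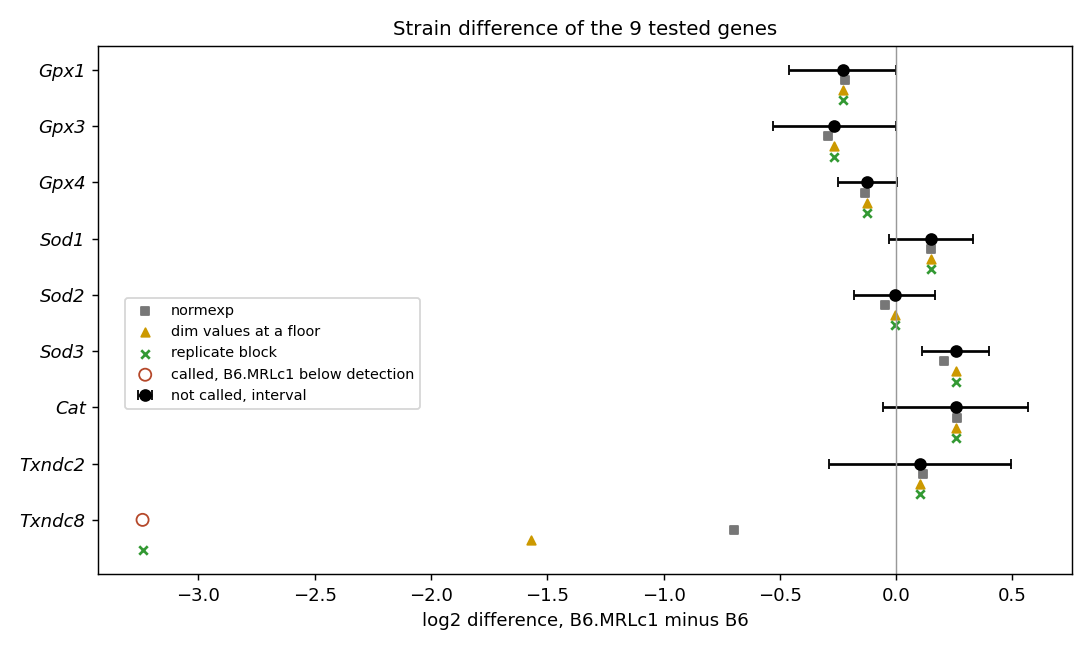
Log2 difference of B6.MRLc1 minus B6 (x axis) for the 9 tested genes, with the 95% interval of the fit for the 8 genes that were not called. The open red circle is Txndc8, whose B6.MRLc1 values are below detection, so that its place at -3.24 is no measured size. Squares, triangles and crosses give the difference with normexp background correction, with dim values at a floor and with the replicate number as a block. Txndc8 moves to -1.57 with the floor and -0.70 with normexp, while the other genes lie within 0.3 of 0 in each of these analyses.

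Txndc2, a thioredoxin of the fibrous sheath of the sperm tail, was well above background on all 6 arrays. Its signals were 0.59, 1.20 and 0.81 in B6.MRLc1 testes, against 0.83, 0.71 and 0.75 in B6 testes. The strains overlapped, and the B6.MRLc1 mice were the more scattered, at 0.87 ± 0.31 against 0.76 ± 0.06 in B6 (SD, n = 3 each). The difference was 0.10 (SE 0.16, interval -0.29 to 0.49, adjusted p = 0.748), and without B6.MRLc1 replicate 2 it was -0.0652. The Txndc2 probe contains the repeated run printed above, in a protein known for tandem repeats ahead of its thioredoxin domain.

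Markers of spermatids, the cells that make both thioredoxins, were read on the same arrays. Of 18 tested round spermatid genes, 9 were called lower and none higher, with a median difference of -1.27. The count called lower was 1 with the replicate block and 1 with no filter on dim probes. It was 1, 0 and 7 without B6.MRLc1 replicates 1, 2 and 3, and 1, 2 and 3 without B6 replicates 1, 2 and 3. Their summed signal was 3.24 to 3.65 in B6.MRLc1 testes and 6.58 to 9.44 in B6 testes. Of 19 tested elongating spermatid genes, 4 were called lower and none higher, the median was -1.88, and all 19 were lower on every B6.MRLc1 array. The count called lower was 0 with the replicate block and with no filter, 10 with normexp, 12 with a variance trend and 13 with array weights. It was 0, 0 and 8 without B6.MRLc1 replicates 1, 2 and 3, and 0, 0 and 2 without B6 replicates 1, 2 and 3. The medians of both lists stayed below 0 in each of these fits. Both lists hold genes well above background on all B6 arrays but on 0 or 1 of 3 B6.MRLc1 arrays. Such genes met the filter through the B6 arrays alone, so the medians rest in part on values at background. Among genes well above background on all 6 arrays, 5 of 11 round spermatid genes were called lower, with a median of -0.91. With that filter 4 of 12 elongating spermatid genes were called lower, with a median of -1.84. The summed signal of the 19 elongating spermatid genes was 7.51 to 12.8 in B6.MRLc1 testes and 22.9 to 56.0 in B6 testes. Prm1 gave -0.75, -1.26 and 1.01 in B6.MRLc1 testes, against 4.20, 3.11 and 2.36 in B6 testes, with a difference of -3.56 and an adjusted p of 0.0693. The part of the spermatid markers in the Txndc8 result was not tested. Of 19 spermatocyte genes 1 was called lower, with a median of -0.0777, and none of 15 Sertoli or 9 Leydig cell genes was called.

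To follow a list from array to array, the signal of each gene was centred on its 6-array mean, and the median of the centred values gave the score. The elongating spermatid score was -1.16, -1.60 and -0.24 in B6.MRLc1 testes, against 1.59, 0.77 and 0.46 in B6 testes.

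**Figure D3:**
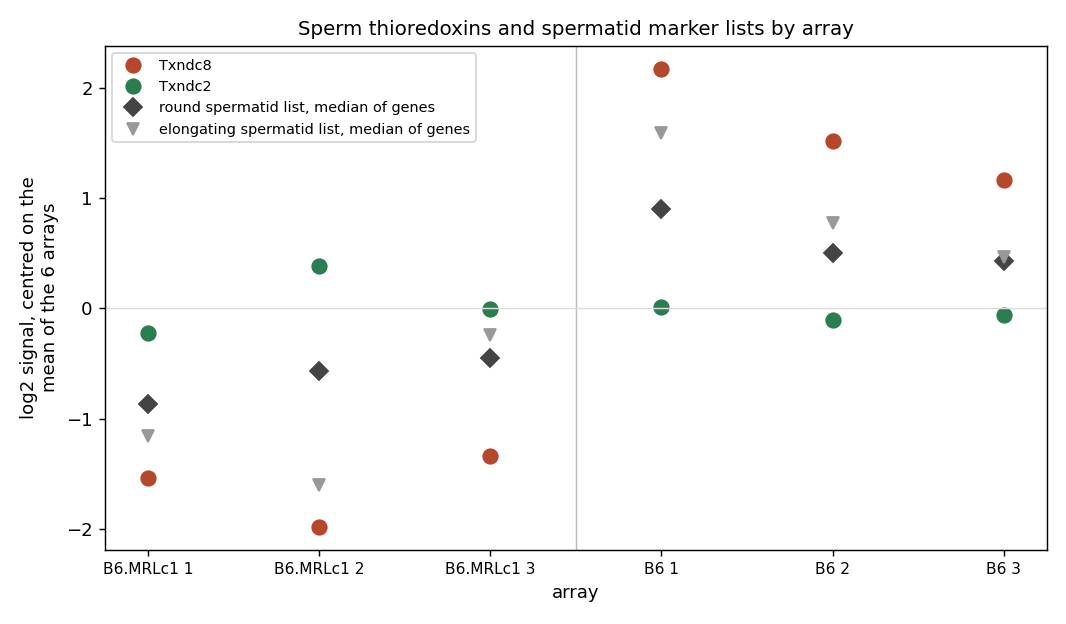
Log2 signal centred on the mean of the 6 arrays (y axis) for Txndc8 and Txndc2 and the median of the round and elongating spermatid lists, by array (x axis). Txndc8, which is below detection on the B6.MRLc1 arrays, and both lists are below 0 on the 3 B6.MRLc1 arrays and above 0 on the 3 B6 arrays, and Txndc2 stays within 0.4 of 0 on all 6.

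Markers of other tissue components were read as well. All 9 tested adipocyte genes were fitted above 0, 6 of them without overlap between the strains and none called, and their summed signal was 9.14 to 17.9 in B6.MRLc1 testes and 5.51 to 8.03 in B6 testes. The red cell list, of 8 tested genes with 1 called lower, summed to 5.62 to 33.9 in B6.MRLc1 testes and 8.34 to 16.3 in B6 testes. Of 10 macrophage, 8 endothelial and 8 peritubular myoid genes none was called, with medians of -0.17, -0.09 and 0.15. The part of these components in the small differences of Sod3, Gpx1, Gpx3 and Cat was not tested.

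The third thioredoxin-related gene of spermatids, Nme8, known for its place in the sperm tail, was the gene of the wider thioredoxin system with an adjusted p under 0.05 (0.00893). It gave -6.55, -6.51 and -6.50 in B6.MRLc1 testes, against -5.13, -4.87 and -5.20 in B6 testes. It was well above background on 0 of 3 B6.MRLc1 arrays and on 3 of 3 B6 arrays, and entered the test only through the B6 arrays. The B6 mean of -5.07 lay below the detection limit, the dimmest signal flagged as well above background, of B6.MRLc1 arrays 1 and 2 (-4.49 and -5.01) and above that of array 3 (-5.31). With dim values at a floor the difference was 0.13 (adjusted p = 0.770), and with normexp it was -0.10 (adjusted p = 0.402). No direction or fold is therefore given for Nme8. The other 21 genes of that system, the general thioredoxins Txn1 and Txn2, their reductases, glutaredoxins and related proteins, were not called, and the median of the 22 was -0.0158. The next smallest p was that of Txnl1, at -1.06 ± 0.05 in B6.MRLc1 and -1.22 ± 0.04 in B6 (difference 0.17, adjusted p = 0.195).

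The enzymes that work beside the members were described in the same way. Of 6 tested peroxiredoxins, which reduce peroxides, most of them with electrons from thioredoxin, none was called and the median was 0.0045. Prdx1 gave 4.83 ± 0.05 in B6.MRLc1 and 4.94 ± 0.12 in B6 (difference -0.11, adjusted p = 0.481), and Prdx3, the mitochondrial form, gave 3.56 ± 0.04 in B6.MRLc1 and 3.49 ± 0.06 in B6 (difference 0.07, adjusted p = 0.567). Of 3 further glutathione peroxidases none was called, with differences of -0.22 for Gpx7 and 0.05 for Gpx8, both proteins of the endoplasmic reticulum (adjusted p = 0.428 and 0.791).

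None of the 16 genes of glutathione supply was called, and their median was 0.0697. Oplah, which returns oxoproline to glutamate, gave 2.55, 2.63 and 2.61 in B6.MRLc1 testes, against 3.30, 3.26 and 2.96 in B6 testes. The strains did not overlap, and the difference of -0.58 (SE 0.10) had an adjusted p of 0.0531. Ggt7, of the gamma-glutamyltransferase family, had a difference of 0.50 with an adjusted p of 0.108. Of 23 tested glutathione transferases, which couple glutathione to reactive compounds, none was called, 15 were fitted above 0 and the median was 0.10. With array weights, 7 of them passed as higher and 1 as lower, a setting that called 1791 of all 25276 genes higher and 2308 lower. With a variance trend none passed as higher and 2 as lower. Gsto2 gave -1.32 ± 0.09 in B6.MRLc1 and -0.75 ± 0.21 in B6 (difference -0.57, adjusted p = 0.0761), and Gstp1 gave 3.56 ± 0.04 in B6.MRLc1 and 3.76 ± 0.03 in B6 (difference -0.20, adjusted p = 0.121). A second Gstp1 probe had a difference of -0.099, with an adjusted p of 0.432 over single probes.

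The transcription factor NRF2 (gene Nfe2l2), held by KEAP1 until oxidants release it, drives many antioxidant genes. Of the 13 genes of that axis none was called, and the median was 0.0727. Maff, a small Maf partner of NRF2, gave -0.35, -0.32 and -0.17 in B6.MRLc1 testes, against 0.22, 0.10 and 0.08 in B6 testes. Its difference was -0.41 (SE 0.07) with an adjusted p of 0.0524. Nqo1, a quinone reductase and a classical NRF2 target, gave -0.52, -0.19 and -0.38 in B6.MRLc1 testes, against -0.88, -0.84 and -0.74 in B6 testes, a difference of 0.45 (SE 0.10, adjusted p = 0.0807). These 2 genes were named for the smallest p of the list, and neither was called. Both lacked overlap between the strains, a separation found in 28.5% of all genes.

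Gpx1, Gpx3 and Gpx4 are selenoproteins, and of 10 genes of selenium delivery and selenoprotein synthesis none was called. Selenop, the plasma carrier of selenium, gave 6.41 ± 0.09 in B6.MRLc1 and 6.76 ± 0.19 in B6 (difference -0.35, adjusted p = 0.166). Lrp8, the receptor that takes up Selenop in testis, gave 2.51 ± 0.03 in B6.MRLc1 and 2.30 ± 0.13 in B6 (difference 0.21, adjusted p = 0.227). A second Lrp8 probe had a difference of 0.0213, with an adjusted p of 0.918 over single probes. Neither gene passed the test.

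Of 6 genes that handle metals for the dismutases none was called. The metallothionein Mt1 gave 7.65, 7.69 and 7.68 in B6.MRLc1 testes, against 8.10, 7.99 and 7.93 in B6 testes, without overlap (difference -0.33, SE 0.06, adjusted p = 0.0604). A second Mt1 probe had a difference of -0.33, with an adjusted p of 0.382 over single probes. Mt3 had a difference of 0.29 with an adjusted p of 0.119. Of 11 tested sources of oxidants none was called, and the median was -0.0857. Nox1, an NADPH oxidase that makes superoxide, gave -3.73, -3.88 and -3.64 in B6.MRLc1 testes, against -4.90, -5.14 and -4.39 in B6 testes, without overlap (difference 1.06, SE 0.20, adjusted p = 0.0579). Aox1 had a difference of 0.17 with an adjusted p of 0.301. With normexp, Oplah, Maff and Mt1 passed the test as lower (adjusted p = 0.0330, 0.0366 and 0.0420) and Nqo1 and Nox1 as higher (adjusted p = 0.0412 and 0.0424). Among genes well above background on all 6 arrays, Oplah, Maff and Nox1 passed (adjusted p = 0.0476, 0.0478 and 0.0499).

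**Figure D4:**
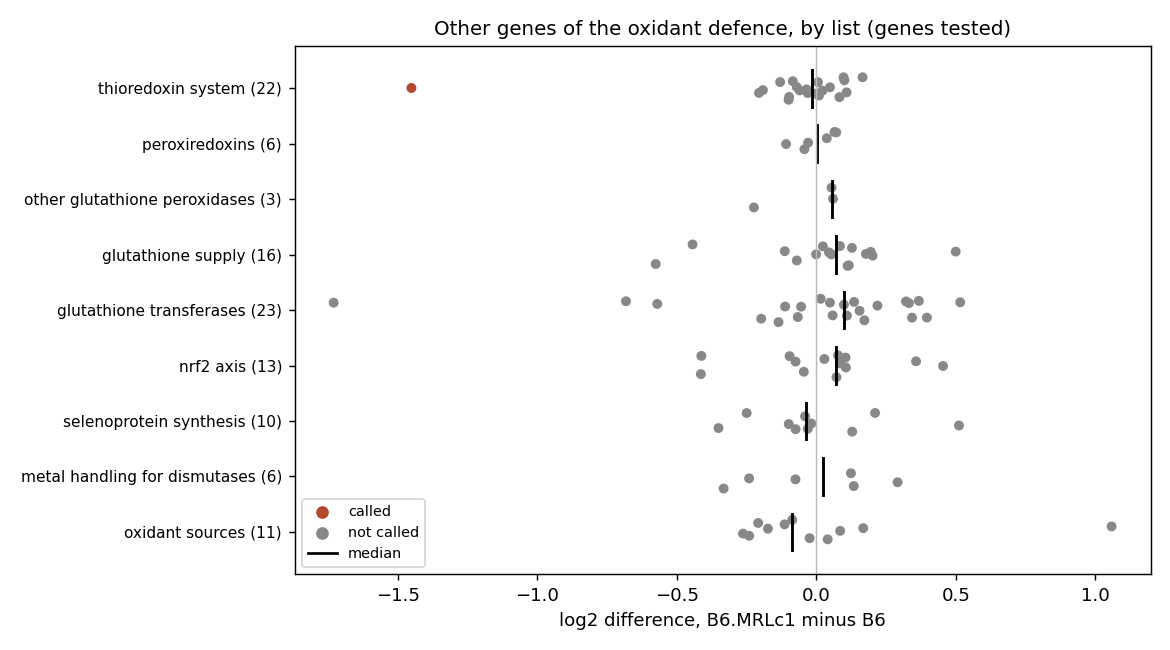
Log2 difference of B6.MRLc1 minus B6 (x axis) for each tested gene of 9 lists around the members (y axis, number of tested genes in brackets), with the list's median as a line. Nme8, shown in red at -1.45, is below detection on the B6.MRLc1 arrays and has no settled direction, and the medians of the lists lie between -0.0857 and 0.0994.

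The patterns over the 6 arrays nearest to those of the thioredoxins were looked up among 15680 named genes. For Txndc8 they were Thegl, Adam6a and Pfn3, whose centred signals differed from it by a root mean square of 0.169, 0.207 and 0.210, against a median of 1.67 over the genes. All 3 were, like Txndc8, well above background on 0 of 3 B6.MRLc1 arrays, so this likeness rests in part on values below detection. For Txndc2 they were Mkx, Sec31b and Hao2, at 0.0444, 0.0485 and 0.0508, against a median of 0.219. The likeness is over 6 arrays only, and the nearest of so many genes had to lie below the median.

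Promoter windows, from 250 bases before to 50 after a start, were taken from RefSeq (assembly GRCm38.p6), which had them for 9 of the 10 members (all but Sod3). The core of the antioxidant response element, TGACNNNGC on either strand, occurred in windows of 2 members, Sod1 (56 bases before the start) and Txndc2 (203 bases before the start of its second window), and in 14.0% of 27025 genes. The cAMP response element TGACGTCA, known from genes that the activator CREM turns on in spermatids, occurred in no member and in 2.03% of genes. The shorter site TGACG, which the full element contains, occurred in Sod1 and Gpx4 and in 23.0% of genes. The Txndc8 window held none of these letters, which describes that window only.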

How the data were processed

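Total RNA was purified on columns, and 0.1 ug was labelled with Cy3 for one-colour Agilent arrays, per the labels' protocols. The authors deposited scanner tables of intensity values and flags, background-subtracted and detrended per the file headers, and not scaled between arrays. Feature Extraction is given as version 10.7.3.1 in the headers and as 9.5.3 in the submitters' processing notes. The deposited series table holds log2 values. For the 31003 probes with a value on all 6 arrays, at least 99.9% lay within 0.05 of the scaled log2 signal minus the probe's median. The values of those probes are thus centred per probe, and the Txndc8 and Gpx5 probes are not among them. Array medians were 0.00474, 0.00986 and 0.0161 for B6.MRLc1 and -0.00297, -0.00405 and 0.0144 for B6. The sources used here do not say how the deposited values were made.

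After control and outlier spots were dropped, signals were divided by the array's 75th percentile and put on the log2 scale. Probes well above background on at least 3 of 6 arrays were kept (36627 of 55681), and the brightest probe per gene was tested with limma 3.58.1 (R 4.3.3) and Benjamini-Hochberg adjustment over 25276 genes. Names came from the array's accession for 27235 probes, its symbol for 3581 and the file alone for 24865. Each array was taken as 1 mouse, after the series' design text. The number of arrays limits the precision.

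The members and gene lists were chosen with earlier results of these data known. All members are named, and of each pathway list every called gene and otherwise the smallest p up to 2 genes. Alternatives were the background correction, scaling, dim-probe filters, a floor, probe averaging, outlier spots, variance trend, array weights, the deposited values, a replicate block and leaving out each array.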

Additional observations from a re-analysis of the deposited data

How the results depend on the processing

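The count of called genes was 663, 97 higher and 566 lower in B6.MRLc1. It was 64 with no filter on dim probes, 1204 with a variance trend, 4099 with array weights, 440 with the deposited values and 24 with the replicate block, and 56 to 487 when leaving out 1 array (86, 58 and 323 without B6.MRLc1 replicates 1, 2 and 3, and 56, 173 and 487 without B6 replicates 1, 2 and 3). With normexp 264 were higher and 618 lower, and with array weights 1791 and 2308. Of the members, 1 was called. None was called with the deposited values, where Txndc8 has no B6.MRLc1 values, nor with the filter on all 6 arrays, which removes Txndc8. None was called with the floor or the replicate block either. When leaving out 1 array the count was 0 to 1. It was 2 with the variance trend and 5 with array weights, which added Gpx1 (-0.25), Gpx3 (-0.37), Sod1 (0.25) and Sod3 (0.27). The cause was not tested beyond this.

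Sod2 changed sign around 0 with median scaling (0.0116) and array weights (0.0822), and ranged from -0.0520 to 0.0344 when leaving out 1 array (0.0344 without B6.MRLc1 replicate 1, 0.0251 and 0.0090 without B6 replicates 1 and 3). Txndc2 ranged from -0.0652, without B6.MRLc1 replicate 2, to 0.241, without B6.MRLc1 replicate 1. Gpx1, Gpx3 and Gpx4 stayed below 0 and Sod1, Sod3 and Cat above 0 in 18 alternatives. Same-numbered arrays of the strains deviated together at correlations of -0.04, 0.17 and 0.09, against -0.16 to 0.07 for differently numbered arrays. The values 0.17 and 0.09 were the highest, so these correlations do not settle whether the numbers pair the mice. The numbers, which are also the slide columns, were not used as pairs in the main fit. With the replicate block Txndc8 had an adjusted p of 0.0900, and Nme8 had an adjusted p of 0.0792. Signal near background limits Txndc8, Nme8 and Gpx5.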
